A study of Mus musculus with 6 samples.

Results

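The genes described here are the Hox genes of the 4 mammalian clusters, taken by their symbols in the deposited expression tables. They were 35 of 15063 listed genes, with 11 in the Hoxa cluster, 8 in Hoxb, 9 in Hoxc and 7 in Hoxd. Expression was measured by stranded mRNA sequencing of mesenchymal stem cells cultured from mouse bone marrow, which are stromal progenitors of the skeleton and of marrow fat. The mice were 3 weeks old, and 3 libraries each came from wild-type animals (WT) and from animals in which Mapk7, the gene of the MAP kinase ERK5, was conditionally knocked out (CKO). All cultures were kept in α-MEM with fetal bovine serum and antibiotics, with no further agent named in the labels. WT library 2 was from passage 7 cells and the other 5 libraries were from passage 5 cells. WT libraries 1 and 2 carry the same animal label, and WT library 3 is numbered as one animal in its description and as another in its header. The sources used here do not give the Cre driver, the deleted exons or the bone that the marrow came from. Nothing in the labels ties the libraries of a genotype to separate litters or culture days. The p-values therefore measure only the spread between these libraries, which may be technical.

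Hox genes encode homeodomain transcription factors that give cells along the body axis and along the limb their positional identity. Within a cluster, genes with low paralogue numbers are expressed towards the head and genes with high numbers towards the tail and, in the limb, towards the digits. In the limb skeleton, groups 9 and 10 pattern the upper segment, group 11 the forearm and shin, and group 13 the hand and foot. Stromal and skeletal progenitors of the adult keep a Hox pattern that reflects the site they came from. Members of one paralogue group in different clusters often act redundantly. Polycomb repressor and Trithorax activator complexes maintain the pattern, and retinoic acid sets much of it in the embryo.

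Promoter sequences are shown for 3 genes chosen after their values were seen. None of the 3 passed the test of the genotypes given below, and Hoxb4 did not enter it. The sequences are those of Hoxa11 and Hoxa13, for the posterior Hoxa genes, and of Hoxb4, for the anterior and central Hoxb genes. Each is the 250 bases before the annotated start in RefSeq, build GRCm38.p6, written 5′ to 3′ on the gene's own strand with every CpG dinucleotide in capitals. Hoxa11 is taken from chr6:52245811-52246060 and Hoxa13 from chr6:52260881-52261130, both on the minus strand, and Hoxb4 from chr11:96318017-96318266 on the plus strand. These positions belong to RefSeq's build and not to mm9, the build of the deposited values.
Hoxa11: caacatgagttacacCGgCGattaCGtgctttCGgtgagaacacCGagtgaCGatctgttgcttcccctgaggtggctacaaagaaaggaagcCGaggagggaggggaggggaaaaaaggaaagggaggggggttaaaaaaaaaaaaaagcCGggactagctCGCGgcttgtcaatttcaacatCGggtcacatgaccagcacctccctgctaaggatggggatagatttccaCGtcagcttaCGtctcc
Hoxa13: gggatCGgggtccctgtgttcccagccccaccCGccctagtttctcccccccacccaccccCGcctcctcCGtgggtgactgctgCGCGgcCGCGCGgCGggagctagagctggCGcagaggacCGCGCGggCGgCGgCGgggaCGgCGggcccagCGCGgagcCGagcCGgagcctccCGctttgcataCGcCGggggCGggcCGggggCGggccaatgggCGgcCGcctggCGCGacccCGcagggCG
Hoxb4: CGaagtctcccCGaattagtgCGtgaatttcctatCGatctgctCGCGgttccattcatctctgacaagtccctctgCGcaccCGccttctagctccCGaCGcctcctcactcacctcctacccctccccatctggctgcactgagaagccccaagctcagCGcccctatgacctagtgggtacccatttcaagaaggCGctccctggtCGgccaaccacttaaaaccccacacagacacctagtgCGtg
The Hoxa11 stretch held 13 CpG dinucleotides at a GC content of 52.0%, the Hoxa13 stretch 35 at 80.0% and the Hoxb4 stretch 14 at 58.0%. RefSeq entries were matched for 19 of the 35 genes, with 21 starts among them. Over those 21 starts the median was 13 CpG dinucleotides and 58.0% GC, against 6 and 52.4% over all 32851 promoter entries. A search of both strands for the letters CACCC, a core bound by Krüppel-like factors, found 0 matches in the Hoxa11 stretch, 4 in Hoxa13 and 1 in Hoxb4. That motif was present in 13 of the 21 Hox stretches and in 52.0% of all 32851 stretches of the same length. The letters TGATTNAT, a site form bound by Pbx and Hox proteins together, were in 2 of the 21 Hox stretches and in 2.82% of all. A match is a description of the letters in the window and not a site of binding.

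The libraries held 17351907 to 20689481 reads, as recovered from the deposited values, and 99.1 to 99.56% of them lay in the listed genes. At this depth 3 reads in a gene of 1 kb correspond to 0.145 to 0.173 RPKM, the unit used for every level below (reads scaled to gene length and library total). Mapk7 was at 7.12, 6.76 and 9.07 RPKM in WT libraries 1 to 3, against 5.59, 3.84 and 5.45 RPKM in CKO libraries 1 to 3, without overlap and without reaching 0 (limma adjusted p = 0.505). The 10 stromal markers were all expressed, with a summed level of 5681 to 6710 RPKM in WT and 3285 to 7056 RPKM in CKO. Pdgfra, a receptor gene that marks marrow stroma, was at 24.9, 32.3 and 14.1 RPKM in the WT libraries and 10.9, 1.01 and 9.82 RPKM in the CKO libraries. The 12 macrophage markers were expressed in every library at summed levels of 1049, 777 and 2201 RPKM in WT, against 716, 419 and 3354 RPKM in CKO. Their sum was lowest in CKO library 2, where Lyz2 alone gave 321 RPKM and Ptprc, the pan-leukocyte gene CD45, was at 0.255 RPKM. Ptprc, Cd68, Csf1r, Adgre1, Lyz2, Itgam and Tyrobp were lowest in CKO library 2. C1qa, C1qb, C1qc and Fcgr1 were lowest in WT library 2, and Cd14 in CKO library 1. The mean of log2(RPKM + 1) over these markers was 3.2 in CKO library 2 and 3.27 in WT library 2. Endothelial markers summed to 0.0573 to 2.55 RPKM, and 0 of 5 passed the filter on low values. Erythroid, granulocyte and lymphocyte markers summed to at most 0.451, 6.94 and 0.281 RPKM. In bulk RNA, fewer cells of a type and less RNA per cell cannot be told apart.

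Of the 35 Hox genes, 22 reached 1 RPKM or more in 3 or more libraries and entered the test, and 13 did not. The tested genes were 8 of 11 in Hoxa, 2 of 8 in Hoxb, 8 of 9 in Hoxc and 4 of 7 in Hoxd. All 6 libraries had an RPKM of 1 or more for 12 Hox genes, of 5 or more for 2 and of 10 or more for Hoxa10 alone. At the other end, 7 genes stayed under 1 RPKM in every library (Hoxa3, Hoxb3, Hoxb5, Hoxb6, Hoxb7, Hoxc12 and Hoxd3), although 32 of the 35 had at least 1 read in all 6. Hoxb1, Hoxb13, Hoxd1 and Hoxd12 were not analysed here. The plot of level by paralogue number shows the genes of groups 2 to 13 in every library.

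**Figure D1:**
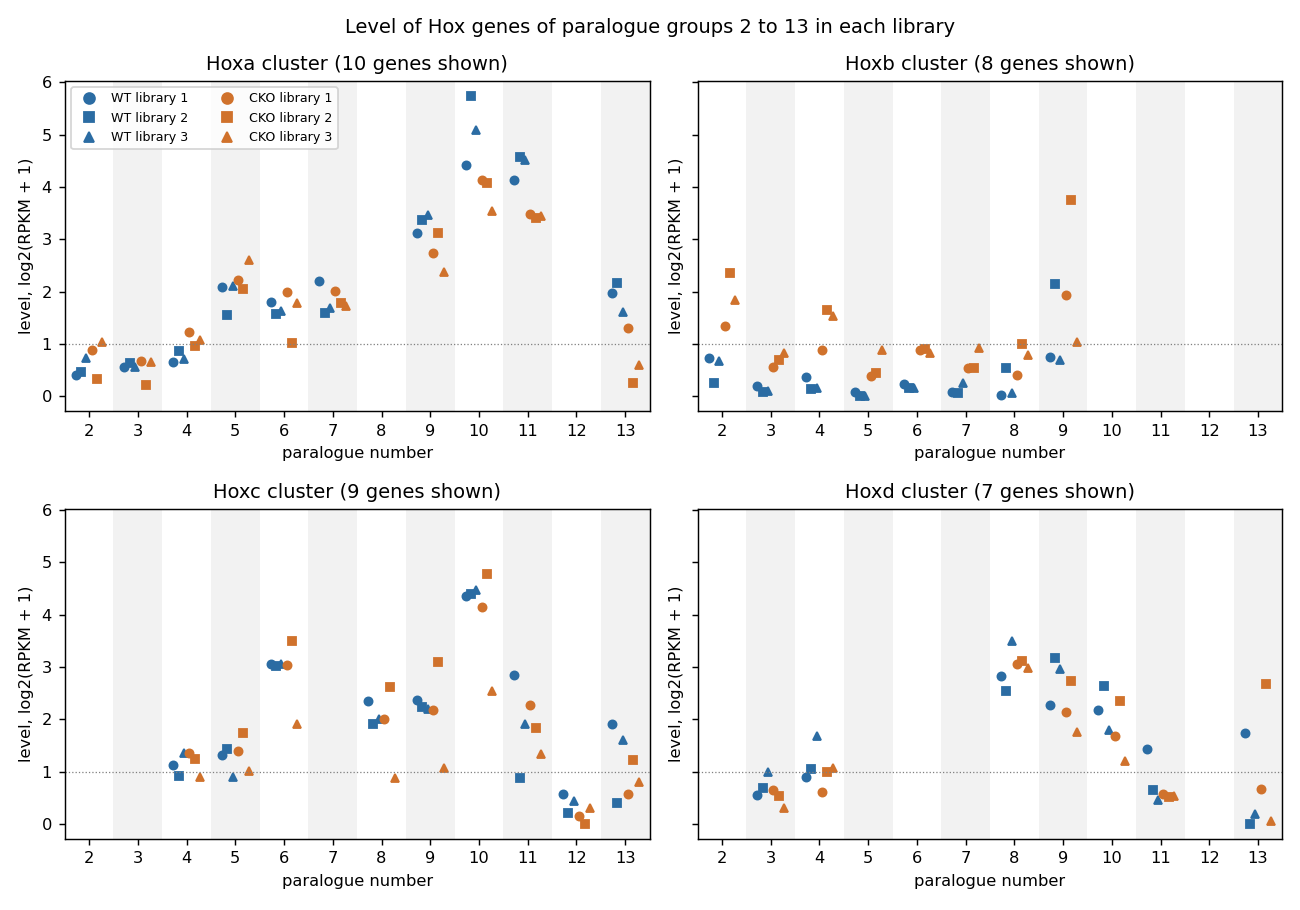
Level of the Hox genes of paralogue groups 2 to 13 as log2(RPKM + 1) (y axis) by paralogue number (x axis), with 1 panel per cluster and 1 point per library (blue WT, orange CKO; the dotted line marks RPKM 1). Hoxa10, Hoxa11 and Hoxc10 stand highest, the Hoxb panel is low in WT, and every orange point lies above every blue one for Hoxb2 to Hoxb7.

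Posterior genes gave most of the Hox RNA in 5 of the 6 libraries. Summed over all 35 genes, Hox RNA was at 128.3, 158.4 and 145.1 RPKM in WT libraries 1 to 3, against 108.8, 147.4 and 79.0 RPKM in CKO libraries 1 to 3. Paralogue groups 9 to 13 gave 72.3, 82.3 and 73.9% of that sum in WT and 62.6, 67.6 and 49.1% in CKO. Group 10 was the largest single group in every library, at 33.8, 49.1 and 39.1% in WT and 32.6, 31.7 and 21.2% in CKO. The first rank was held by Hoxa10 in WT libraries 1 to 3 and CKO library 3, and by Hoxc10 in CKO libraries 1 and 2. Comparisons of level between genes rest on the gene lengths behind the RPKM values. The lengths recovered from the values were within 10% of the longest GENCODE transcript for 18 of the 35 genes, over 1.5 times as long for 7 and under 0.75 times for 4. Of the 7, 6 were anterior or central genes (Hoxa3, Hoxa6, Hoxb3, Hoxb7, Hoxc4 and Hoxc6), and a longer length gives a lower RPKM for the same reads.

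Hoxa9, Hoxa10, Hoxa11 and Hoxa13, the posterior genes of the Hoxa cluster, were lower in each CKO library than in the lowest WT library. Hoxa10, a gene of the proximal limb and of the uterus, was at 20.3, 52.5 and 33.1 RPKM in WT libraries 1 to 3, against 16.5, 15.9 and 10.6 RPKM in CKO libraries 1 to 3. The WT libraries were spread widely, with the passage 7 library highest, and did not overlap the CKO libraries. The log2 difference of CKO minus WT, on the log2(RPKM + 1) scale used throughout, was −1.16 (SE 0.36, limma adjusted p = 0.350).
Hoxa11, which patterns the forearm and shin, was at 16.5, 22.7 and 21.8 RPKM in WT, against 10.2, 9.60 and 9.82 RPKM in CKO. The means were 20.3 ± 3.36 RPKM for WT and 9.89 ± 0.328 RPKM for CKO (SD, n = 3), so the means differed by more than either SD. This gave the smallest p of the 22 tested Hox genes, with a log2 difference of −0.96 (SE 0.20) and limma adjusted p = 0.258. In the fit without a filter, Hoxb6, Hoxb3 and Hoxb4 had smaller p-values. Hoxa11os, the antisense transcript of the locus, overlaps its exons in the annotation, and the sources used here do not say whether the counting used strand.
Hoxa13, the digit gene at the end of the cluster, was at 2.93, 3.48 and 2.06 RPKM in WT, against 1.48, 0.196 and 0.513 RPKM in CKO. Its CKO values rest on 37, 5 and 12 reads, against 67, 95 and 47 in WT, and the log2 difference was −1.19 (SE 0.32, limma adjusted p = 0.312).
Hoxa9, the gene next to Hoxa10, was at 7.75, 9.36 and 9.98 RPKM in the WT libraries and 5.64, 7.68 and 4.19 RPKM in the CKO libraries. The gap between the groups was narrow here, since WT library 1 at 7.75 and CKO library 2 at 7.68 nearly touched (difference of −0.58 on the log2 scale, SE 0.25, limma adjusted p = 0.519). Summed, Hoxa9 to Hoxa13 stood at 47.5, 88.0 and 66.9 RPKM in WT, against 33.9, 33.4 and 25.2 RPKM in CKO, a ratio of the means of 2.19 for WT over CKO. Of the 10 stromal markers, 4 were lower in CKO without overlap as well (Pdgfra, Pdgfrb, Cxcl12 and Ly6a), against 9.18% of all tested genes. The median log2 difference of that list was −0.815, and its part in the Hoxa values was not tested. Without WT library 2, the passage 7 library, the differences were −0.84 for Hoxa10, −0.87 for Hoxa11 and −1.07 for Hoxa13.

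For the tested central Hoxa genes the genotypes overlapped. Hoxa5, a gene of the neck, chest and lung, was at 3.25, 1.93 and 3.32 RPKM in the WT libraries and 3.69, 3.14 and 5.10 RPKM in the CKO libraries. Hoxa6 was at 2.48, 1.97 and 2.10 RPKM in WT, against 3.00, 1.01 and 2.42 RPKM in CKO. Hoxa7, which patterns the thorax, was at 3.60, 2.01 and 2.21 RPKM in WT, against 3.00, 2.44 and 2.31 RPKM in CKO. For these central genes the libraries of the genotypes were interleaved. Among the untested genes, Hoxa2 ranged from 0.262 to 1.05 RPKM and Hoxa3 from 0.161 to 0.598 RPKM over the 6 libraries, with overlap. Hoxa4 was at 0.564, 0.820 and 0.639 RPKM in the WT libraries and 1.34, 0.944 and 1.1 RPKM in the CKO libraries, so the CKO libraries were the higher ones without overlap. Over the Hoxa cluster as a whole the sum was 60.2, 96.2 and 77.5 RPKM in WT, against 48.1, 43.3 and 43.2 RPKM in CKO, and the share of the Hox sum overlapped between the genotypes, at 46.9 to 60.7% in WT and 29.4 to 54.7% in CKO.

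**Figure D2:**
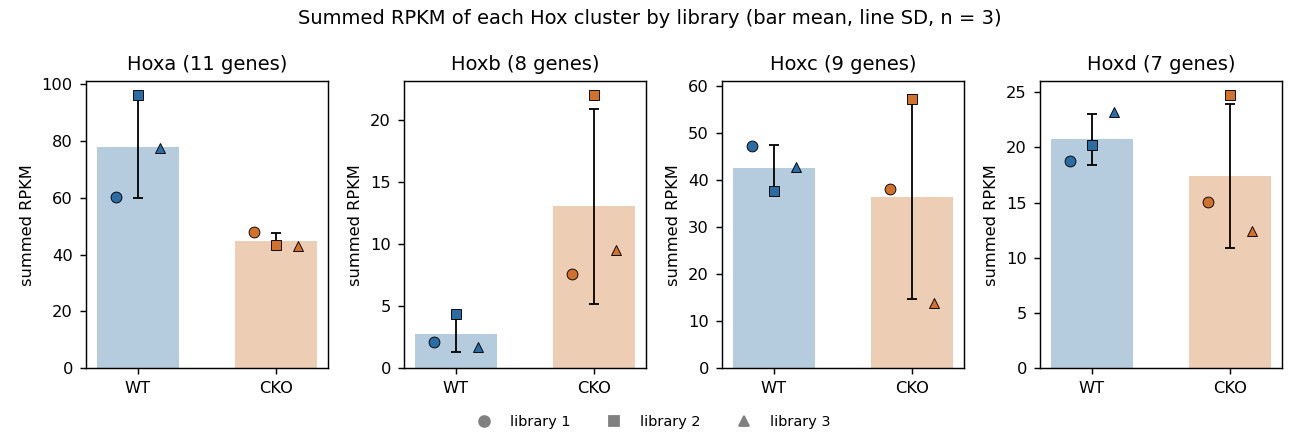
Summed RPKM of each Hox cluster (y axis, 1 panel per cluster, scales differ) in WT and CKO, with points for single libraries, bars for the mean and lines for the SD (n = 3). The CKO points lie below the WT points for Hoxa and above them for Hoxb, without overlap, and the Hoxc and Hoxd points overlap.

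The Hoxb cluster was low in WT, where Hoxb9 alone reached 1 RPKM and in WT library 2 alone, and Hoxb2 to Hoxb7 were higher in every CKO library. Hoxb2, which acts in the hindbrain and in blood progenitors, was at 0.667, 0.196 and 0.600 RPKM in WT, against 1.53, 4.13 and 2.58 RPKM in CKO. The ratio of the mean levels was 5.63, and the log2 difference was 1.29 (SE 0.31, limma adjusted p = 0.278). Hoxb2 passed the filter on low values through the CKO libraries alone, so a difference in that direction was built into its being tested.
Hoxb4, known for expanding blood stem cells when it is overexpressed, was at 0.292, 0.0942 and 0.112 RPKM in WT, against 0.844, 2.12 and 1.91 RPKM in CKO. These levels are 13, 5 and 5 reads in the WT libraries and 41, 105 and 87 reads in the CKO libraries. Per read sequenced, the summed CKO libraries held 10.0 times the Hoxb4 reads of the summed WT libraries (95% exact interval 6.51 to 16.1). Intervals of this kind cover counting error only, and not the spread between libraries.
The genes between and beside them never reached 1 RPKM and were chosen for naming after their values were seen. Hoxb3 ranged from 0.0498 to 0.141 RPKM in WT, against 0.476 to 0.770 RPKM in CKO. For Hoxb6 the CKO libraries were alike, at 0.852, 0.866 and 0.769 RPKM, against 0.179, 0.120 and 0.107 RPKM in WT. Hoxb7, like Hoxb6 a gene of the thoracic region, was at 0.0538, 0.0451 and 0.188 RPKM in the WT libraries and 0.444, 0.458 and 0.894 RPKM in the CKO libraries. Both of these genes were thus above their WT levels in all 3 CKO libraries. Hoxb5 had 2, 0 and 0 reads in the WT libraries and 11, 13 and 28 in the CKO libraries, a rate ratio of 25.7 with an exact interval of 6.77 to 218. The 0 counts allow up to 0.0765 RPKM in WT library 2 and 0.0912 RPKM in WT library 3, counting 3 reads as the limit. None of the WT libraries thus overlapped a CKO library for Hoxb2, Hoxb3, Hoxb4, Hoxb5, Hoxb6 or Hoxb7. The antisense genes Hoxb3os and Hoxb5os overlap the exons of Hoxb2, Hoxb3 and Hoxb5 in the annotation, and their reads may be shared.
Towards the posterior end of the cluster the picture was mixed. Hoxb8 was at 0.0196, 0.443 and 0.0391 RPKM in WT, against 0.323, 1.00 and 0.727 RPKM in CKO, and WT library 2 lay inside the CKO range. Hoxb9, the highest gene of the cluster on average, was at 0.683, 3.42 and 0.619 RPKM in WT, against 2.83, 12.5 and 1.04 RPKM in CKO. Its level in CKO library 2 made it the third Hox gene of that library, and the log2 difference of 1.05 (SE 0.73, limma adjusted p = 0.658) was 0.29 without that library.

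Summed over its 8 genes, the Hoxb cluster stood at 2.10, 4.37 and 1.73 RPKM in the WT libraries and 7.61, 22.0 and 9.52 RPKM in the CKO libraries. Its share of the Hox sum was 1.63, 2.76 and 1.19% in WT and 6.99, 15 and 12.1% in CKO. Hoxb2 to Hoxb7 alone summed to 1.39, 0.505 and 1.08 RPKM in WT and to 4.45, 8.54 and 7.75 RPKM in CKO, a ratio of the means of 6.98. These are the Hoxb genes whose groups did not overlap, so the lack of overlap of this sum was built into the choice. Over all 8 Hoxb genes the ratio of the means was 4.78. The macrophage marker sums of the same libraries were 1049, 777 and 2201 RPKM in WT, against 716, 419 and 3354 RPKM in CKO, with overlap. The part of the macrophage markers in the Hoxb values was not tested, nor was that of the 4 stromal markers that were lower in CKO.

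Hoxc6, Hoxc8, Hoxc9 and Hoxc10 were spread more widely between the CKO libraries than between the WT libraries. Hoxc10, a gene of the lumbar trunk and hindlimb, was at 19.6, 20.1 and 21.2 RPKM in WT libraries 1 to 3, against 16.7, 26.6 and 4.83 RPKM in CKO libraries 1 to 3. The SD of the WT libraries was 0.813 RPKM (n = 3), while the CKO libraries spanned both sides of them. Hoxc6, expressed in the thorax and forelimb field, was at 7.27, 7.15 and 7.35 RPKM in WT, against 7.19, 10.3 and 2.76 RPKM in CKO. Hoxc8 was at 4.12, 2.75 and 2.99 RPKM in WT, against 3.03, 5.17 and 0.825 RPKM in CKO. Hoxc9, which sets thoracic identity in the spinal cord, was at 4.17, 3.73 and 3.59 RPKM in the WT libraries and 3.54, 7.60 and 1.09 RPKM in the CKO libraries. For all 4 of these neighbouring genes CKO library 2 was the highest of the 6 libraries and CKO library 3 the lowest. Together they summed to 35.1, 33.7 and 35.1 RPKM in WT and to 30.5, 49.7 and 9.50 RPKM in CKO. CKO library 3 also had the highest macrophage and the lowest stromal marker sum of the 6 libraries, at 3354 and 3285 RPKM. Lyz2 alone gave 2948 RPKM of that macrophage sum. By the mean of log2(RPKM + 1), the macrophage markers were highest in WT library 3, at 5.6 against 5.29 in CKO library 3. By that mean the stromal markers were lowest in CKO library 2, at 6.24 against 6.62 in CKO library 3. The part of either list in the low Hoxc levels of CKO library 3 was not tested. The log2 differences of these 4 genes were −0.58 for Hoxc10, −0.23 for Hoxc6, −0.25 for Hoxc8 and −0.15 for Hoxc9, and without CKO library 3 all 4 lay above 0, at 0.06, 0.22, 0.23 and 0.37.
The remaining Hoxc genes were low or uneven. Hoxc4 was at 1.17, 0.893 and 1.56 RPKM in WT, against 1.56, 1.36 and 0.851 RPKM in CKO. Hoxc5 was at 1.5, 1.70 and 0.866 RPKM in WT, against 1.62, 2.33 and 1.01 RPKM in CKO. Its exons overlap those of Hoxc10 on the same strand in the annotation, so reads of these genes may be shared. Hoxc11, a hindlimb gene, was at 6.24, 0.845 and 2.77 RPKM in the WT libraries and 3.81, 2.54 and 1.54 RPKM in the CKO libraries. Hoxc13, a gene of hair follicles and nails, was at 2.75, 0.318 and 2.04 RPKM in WT, against 0.477, 1.32 and 0.741 RPKM in CKO. For both of these posterior genes the lowest value of the 6 libraries was that of WT library 2, from passage 7. Hoxc12 ranged from 0 to 0.479 RPKM, and its 0 reads in CKO library 2 allow up to 0.161 RPKM.

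The Hoxd cluster overlapped between the genotypes for every gene. Hoxd8, the highest of the cluster on average, was at 6.06, 4.79 and 10.2 RPKM in WT, against 7.28, 7.71 and 6.91 RPKM in CKO. Hoxd9 was at 3.84, 7.99 and 6.75 RPKM in the WT libraries and 3.39, 5.66 and 2.36 RPKM in the CKO libraries. Hoxd10, which with Hoxd9 patterns the limb and the lumbar motor columns, was at 3.49, 5.19 and 2.48 RPKM in WT, against 2.22, 4.12 and 1.31 RPKM in CKO. The CKO means were the lower ones for Hoxd9 and Hoxd10, by −0.59 and −0.45 on the log2 scale, and neither passed the test (limma adjusted p = 0.607 and 0.694). Hoxd4 was at 0.855, 1.08 and 2.21 RPKM in WT, against 0.516, 0.989 and 1.1 RPKM in CKO, and its exons overlap those of Hoxd3. Hoxd11, the group 11 partner of Hoxa11, was at 1.69, 0.574 and 0.378 RPKM in the WT libraries and 0.493, 0.431 and 0.441 RPKM in the CKO libraries, so it was low in 5 of the 6 libraries. Hoxd13, which patterns the digits with Hoxa13, was high in single libraries, at 2.33 RPKM in WT library 1 and 5.41 RPKM in CKO library 2, and was at 0 to 0.595 RPKM in the other 4. Its 0 reads in WT library 2 allow up to 0.0564 RPKM. The Hoxd share of the Hox sum was steady, at 12.8 to 16% in WT and 13.8 to 16.8% in CKO. The summed Hoxd level was less so, at 18.7 to 23.2 RPKM in WT and 12.4 to 24.8 RPKM in CKO.

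By limma over all 11085 tested genes, 0 of the 22 tested Hox genes passed an adjusted p of 0.05, with adjusted p-values from 0.258 to 0.992. In the whole fit 1 gene passed, which is 0.00902% of those tested. At an unadjusted p under 0.05, 1 Hox gene was higher in CKO (Hoxb2) and 3 were lower (Hoxa10, Hoxa11 and Hoxa13), against 3.36% of all tested genes higher and 6.39% lower. The limma-voom fit on recovered reads gave the same numbers, 0 adjusted and 1 higher and 3 lower unadjusted. In a fit of all 15063 listed genes without a filter, 0 Hox genes passed after adjustment, while 7 of 35 were higher and 3 lower at an unadjusted p under 0.05. The shares over all listed genes in that fit were 3.35% higher and 5.94% lower. The smallest adjusted p of a Hox gene there was 0.225, for Hoxb6. For 1 gene with 3 libraries a genotype, the smallest p that an exact permutation test allows is 0.1.
Groups that did not overlap were counted as well. Among the tested Hox genes, every CKO library lay above every WT library for 1 and below for 4 of 22, against 7.51% and 9.18% of all tested genes. The 1 above, like the 1 higher at an unadjusted p, was Hoxb2, which passed the filter through the CKO libraries alone. Over all 35 listed Hox genes the counts were 7 above and 4 below, against 7.57% and 9.65% of all listed genes. The 7 were Hoxa4 and Hoxb2 to Hoxb7, the 4 were Hoxa9, Hoxa10, Hoxa11 and Hoxa13, and the other 24 overlapped. Without CKO library 2 the count below was 8 in place of 4, against 15.4% of all listed genes, as Hoxc9, Hoxc10, Hoxd9 and Hoxd10 were then lower in both remaining CKO libraries than in any WT library. The median log2 difference of the tested Hox genes was −0.19, beside 0.03 over all tested genes, with 8 genes above 0 and 14 below. This median rested on single libraries, since it was −0.47 without CKO library 2 and 0.10 without CKO library 3. By cluster, in the fit without a filter, the medians were −0.06 for Hoxa, 0.63 for Hoxb, −0.23 for Hoxc and −0.31 for Hoxd, beside 0.02 over all listed genes. All 8 Hoxb genes had a log2 difference above 0, as had 5 of 11 in Hoxa, 2 of 9 in Hoxc and 2 of 7 in Hoxd.

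Read by paralogue number, the code differed between the genotypes in its proportions. Groups 1 to 3 gave 3.20, 1.46 and 2.75% of the Hox sum in WT and 5.28, 5.16 and 13.5% in CKO. The central groups 4 to 8 gave 24.5, 16.3 and 23.4% in WT and 32.2, 27.3 and 37.4% in CKO. With the posterior shares given above, the shares of all 3 segments were without overlap between the genotypes. The 3 shares add up to the whole in each library, so they are not independent of each other. As summed levels, groups 1 to 3 were also without overlap, at 4.10, 2.32 and 3.98 RPKM in WT, against 5.75, 7.60 and 10.7 RPKM in CKO. The central sum overlapped, at 31.5, 25.8 and 33.9 RPKM in WT, against 35, 40.2 and 29.5 RPKM in CKO. The posterior sum overlapped too, at 92.7, 130.3 and 107.2 RPKM in the WT libraries and 68.1, 99.6 and 38.8 RPKM in the CKO libraries. The group 11 sum, made up mostly of Hoxa11, was the most uniform in WT, at 24.4, 24.1 and 24.9 RPKM, and stood at 14.6, 12.6 and 11.8 RPKM in CKO. Among the WT libraries, Hoxa11 was lowest in library 1, where Hoxc11 and Hoxd11 were highest, so the members were less even than their sum. Group 10 overlapped, at 43.4, 77.7 and 56.7 RPKM in WT, against 35.5, 46.7 and 16.8 RPKM in CKO. The group 5 sum, of Hoxa5, Hoxb5 and Hoxc5, lay at 4.81, 3.63 and 4.18 RPKM in WT, against 5.62, 5.82 and 6.94 RPKM in CKO.

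**Figure D3:**
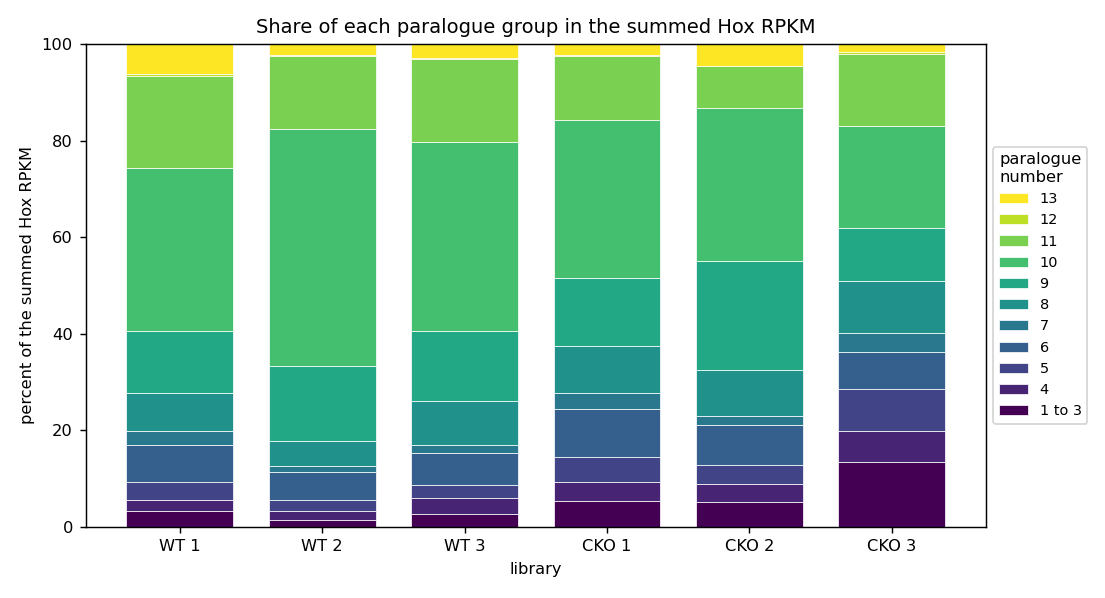
Share of each paralogue group in the summed Hox RPKM (y axis, percent) for each library (x axis), stacked from groups 1 to 3 combined at the bottom to group 13 at the top. Group 10 is the widest band in every library, and groups 1 to 8 together take a larger share in the CKO libraries, most of all in CKO library 3.

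The likeness of the Hox code between libraries was described by correlations across genes. Pearson's r of log2(RPKM + 1) over the 35 Hox genes ranged from 0.651 to 0.936 over the 15 pairs of libraries, with a median of 0.825. Over all 11085 tested genes it ranged from 0.795 to 0.972, with a median of 0.918. Genes are not independent replicates, and the range of values in 35 genes is not that of 11085, so the values are given as a description. The 3 WT pairs had an r of 0.872 to 0.936 over the Hox genes, although WT library 2 stood apart across all genes. CKO library 1 was close to the WT libraries, with 0.922 as the highest r between the genotypes. CKO libraries 2 and 3 had the lowest r of all pairs, at 0.651. By rank the order was another, as Spearman's rho was lowest for WT library 2 with CKO library 3, at 0.595, and was 0.674 for CKO libraries 2 and 3. Without the Hoxb genes the median of the 15 pairs was 0.869 and the lowest 0.673. Per gene, the SD of log2(RPKM + 1) over the 6 libraries had a median of 0.543 for the tested Hox genes and 0.363 for all tested genes.

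**Figure D4:**
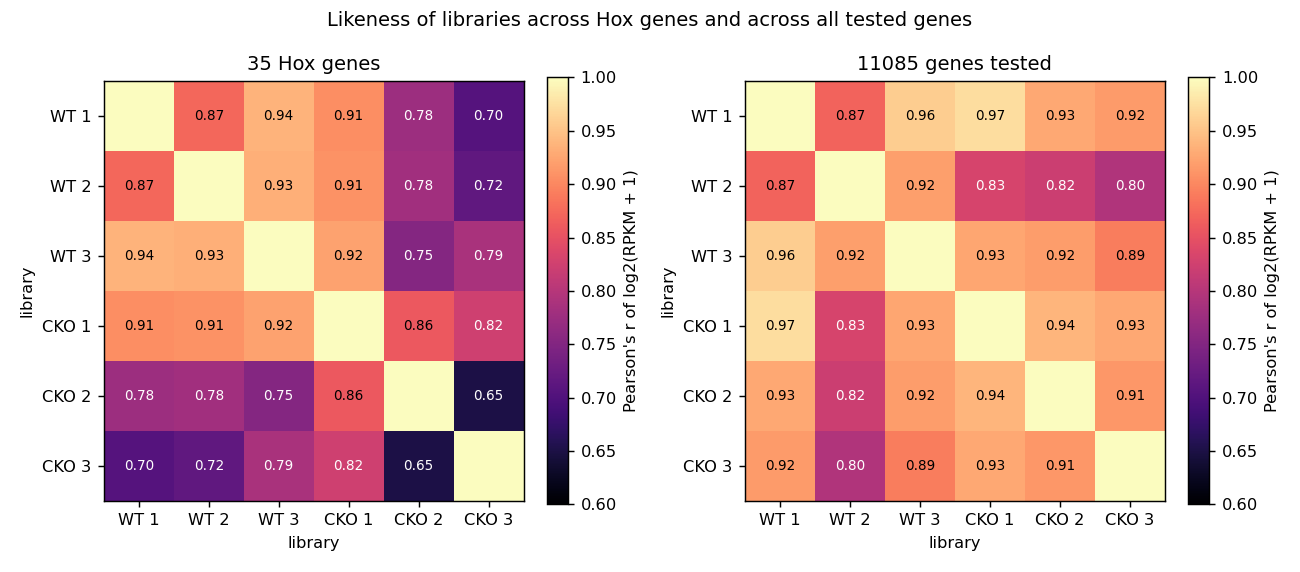
Pearson's r of log2(RPKM + 1) for each pair of libraries (both axes list the 6 libraries), over the 35 Hox genes on the left and the 11085 tested genes on the right, on 1 colour scale. On the left CKO libraries 2 and 3 have the lowest value, 0.651, and the WT pairs lie at 0.872 or more. On the right WT library 2 has the lowest values.

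Genes that specify the kind of limb were compared beside the Hox genes. Pitx1, a hindlimb selector gene, was at 20.9, 28.1 and 26.0 RPKM in the WT libraries and 16.1, 18.8 and 2.31 RPKM in the CKO libraries. Its CKO libraries all lay below its WT libraries (limma adjusted p = 0.575). Tbx4, which acts with Pitx1 in the hindlimb, was at 6.54, 4.28 and 4.02 RPKM in WT, against 4.45, 1.44 and 0.701 RPKM in CKO. Tbx5, its forelimb counterpart, was at 1.57, 1.33 and 0.389 RPKM in WT, against 1.76, 1.19 and 0.661 RPKM in CKO. Transcripts of all 3 were thus present in both genotypes, Pitx1 at the highest level in each library, and CKO library 3 was lowest for Pitx1 and Tbx4 as it was for Hoxc6 to Hoxc10. The limb and skeletal patterning list, of which 29 of 43 genes were tested, had 0 genes past the adjusted threshold by limma, and 1 higher and 5 lower at an unadjusted p under 0.05 (median log2 difference −0.38). Over all tested genes 3.36% were higher and 6.39% lower by that rule. Hand2, which sets up the posterior limb bud with the 5′ Hoxd genes, was at 5.52, 6.01 and 6.63 RPKM in the WT libraries and 1.13, 3.12 and 0.706 RPKM in the CKO libraries (limma adjusted p = 0.277). Meox2, a somite and limb muscle regulator, was at 10.9, 15.9 and 13.9 RPKM in WT, against 6.15, 1.31 and 6.61 RPKM in CKO (limma adjusted p = 0.345). Both were lower in every CKO library than in any WT library, as were 9.18% of all tested genes. Tbx3, a gene of the limb margins, went the other way in level, at 3.55, 1.17 and 1.74 RPKM in WT, against 3.96, 4.80 and 4.06 RPKM in CKO (limma adjusted p = 0.454).

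Retinoic acid genes were part of a list of Hox locus regulators, with 10 of 19 genes tested, 0 past the adjusted threshold by limma, and 0 higher and 3 lower at an unadjusted p under 0.05, against 3.36% and 6.39% of all tested genes (median log2 difference −0.13). Cyp26b1, which degrades retinoic acid in the distal limb, was at 5.16, 16.9 and 6.04 RPKM in the WT libraries and 2.23, 0.240 and 0.352 RPKM in the CKO libraries (log2 difference −2.39 with an SE of 0.52, limma adjusted p = 0.274). Rarg, a retinoic acid receptor gene, was at 41.1, 50.2 and 48.3 RPKM in WT, against 29.9, 26.4 and 23.2 RPKM in CKO (limma adjusted p = 0.303). Rxra, the gene of its dimer partner, was at 21.3, 28.1 and 18.5 RPKM in WT, against 15.1, 8.95 and 13.2 RPKM in CKO (limma adjusted p = 0.371). All 3 were without overlap and lower in CKO, while none passed the test. They were named for the lowest p of their list, which favours groups that do not overlap. Of all tested genes, 9.18% were lower in CKO without overlap.

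**Figure D5:**
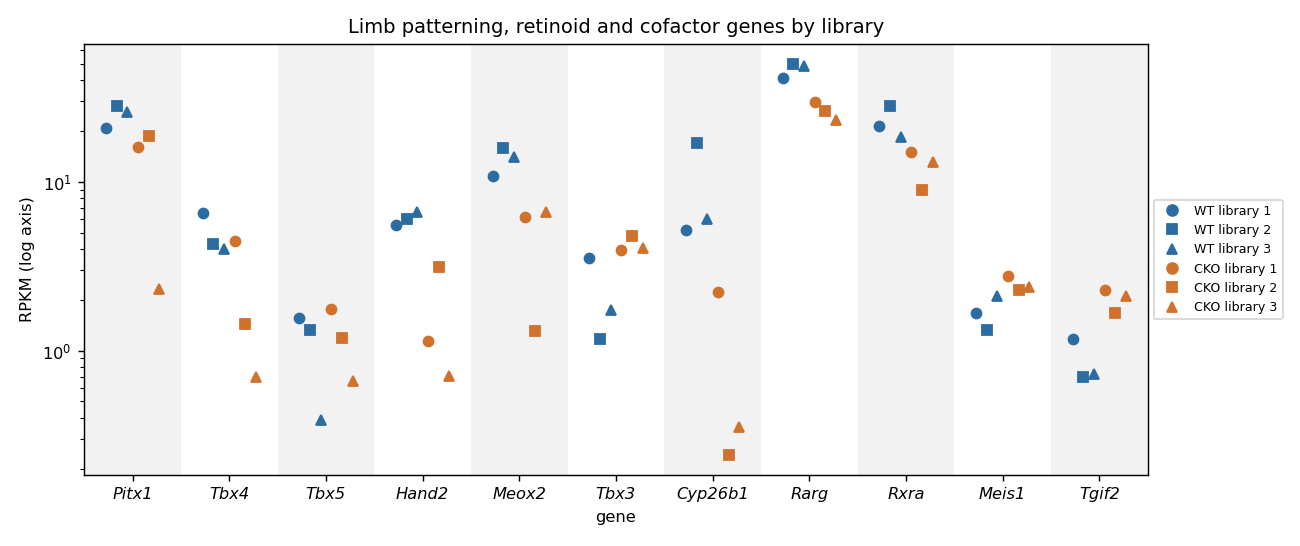
RPKM (log axis) of limb patterning, retinoid and cofactor genes in each library (blue WT, orange CKO). Pitx1, Hand2, Meox2, Cyp26b1, Rarg and Rxra lie lower in CKO without overlap, and Tbx3, Meis1 and Tgif2 lie higher. Pitx1 is lowest in CKO library 3.

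Hox proteins bind DNA with TALE homeodomain cofactors, of which 10 of 11 genes were tested, with 0 past the adjusted threshold by limma, and 2 higher and 0 lower at an unadjusted p under 0.05, against 3.36% and 6.39% of all tested genes (median log2 difference 0.01). Meis1 was at 1.67, 1.32 and 2.10 RPKM in WT, against 2.78, 2.28 and 2.39 RPKM in CKO, higher in every CKO library by a small margin (limma adjusted p = 0.607). Tgif2, a TALE repressor gene, was at 1.17, 0.699 and 0.730 RPKM in WT, against 2.30, 1.68 and 2.11 RPKM in CKO (limma adjusted p = 0.357). Tgif1, its relative, was at 10.1, 3.96 and 11.8 RPKM in the WT libraries and 11.7, 22.4 and 21.2 RPKM in the CKO libraries, with overlap. All 3 of these cofactor genes were thus detected in every library.

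Chromatin regulators that hold Hox clusters silent or active were then compared. Of the Polycomb list, 29 of 31 genes were tested, with 0 past the adjusted threshold by limma, and 1 higher and 1 lower at an unadjusted p under 0.05, against the same 3.36% and 6.39% (median log2 difference 0.08). Ezh2, the H3K27 methyltransferase of dividing cells, was at 8.24, 1.31 and 5.84 RPKM in WT, against 10.9, 7.20 and 5.19 RPKM in CKO, and WT library 2 lay far below the rest. Ezh1, the form used in resting cells, was at 5.27, 13 and 9.13 RPKM in WT, against 4.21, 3.33 and 6.01 RPKM in CKO. Pcgf6, a subunit of a variant Polycomb complex, was at 4.32, 2.58 and 5.21 RPKM in the WT libraries and 7.57, 7.55 and 6.72 RPKM in the CKO libraries (limma adjusted p = 0.399). Ring1, a ubiquitin ligase subunit, ranged from 10.6 to 15.5 RPKM in WT, against 7.75 to 11.7 RPKM in CKO. Of these 4 genes, Pcgf6 alone had groups that did not overlap. In the list of Trithorax genes and H3K27 demethylases, 15 of 16 genes were tested, with 0 past the adjusted threshold by limma and 0 in either direction at an unadjusted p under 0.05 (median log2 difference 0.20). Wdr5, a core subunit of the H3K4 methyltransferases, ranged from 9.68 to 14.1 RPKM in WT, against 14.6 to 18.1 RPKM in CKO. Ash2l, another core subunit, ranged from 9.39 to 17.4 RPKM in WT, against 17.6 to 17.9 RPKM in CKO. Dot1l, the H3K79 methyltransferase gene, ranged from 2.80 to 5.47 RPKM in WT, against 5.09 to 6.56 RPKM in CKO. The groups did not overlap for Wdr5 and Ash2l, by narrow gaps, and did for Dot1l. Of all tested genes, 7.51% were higher in CKO without overlap. The limma-voom fit also passed 0 genes of these 5 lists after adjustment. The long non-coding RNAs of the Hox clusters were not analysed here, as 0 of 22 were among the listed genes.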

How the data were processed

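The authors deposited 1 value per gene and library, called expression in the file headers. The deposited values were identified as RPKM because 15060 of 15063 genes (99.98%) gave whole reads, within 0.01 read or a relative error of 1e-07, for 1 whole-number total per library and 1 length per gene. Per the submitters' processing notes, reads were placed on build mm9. For the aligner, counting tool, annotation and use of strand, nothing is given in the sources used here. The series-wide table repeats the values of the single files and was left out.

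Values were tested as log2(RPKM + 1) in the 11085 genes that reached RPKM 1 in 3 or more of 6 libraries, with limma 3.58.1 in R 4.3.3 (genotype as the only term, trend and robust moderation, two-sided, Benjamini-Hochberg over all tested genes, threshold 0.05). A pseudocount of 1 understates differences of low genes. Levels, sums and shares were computed with pandas 2.3.3 in Python 3.11.15, and exact intervals of read ratios with scipy 1.17.1. Gene models were compared with GENCODE, which is of another build, by transcript length and exon overlap only. The limma fit and the recovery of reads were tested on simulated data. Groups and replicate numbers came from sample titles.

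Tested Hox genes are given by library and the others by range, by name where a library reached RPKM 1. Of 6 further lists (TALE cofactors, limb and skeletal patterning, Polycomb, Trithorax, Hox locus regulators and cluster RNAs) the 3 genes with the lowest p are named, and in addition Tbx4, Tbx5, Pitx1, Meis1, Ezh2 and Mapk7. Some genes that the rule takes are left out here. Genes named outside this rule were chosen after their values were seen. The members and lists were chosen with earlier results of these data known. Alternatives were another pseudocount, filters, scalings, moderation, a limma-voom fit on recovered reads, averaging the WT libraries of 1 animal label, a replicate block and leaving out each library. Counts of genes without overlap under left-out libraries, and library correlations without the Hoxb genes or with a pseudocount of 0.1, were chosen after seeing the data.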

Additional observations from a re-analysis of the deposited data

How the results depend on the processing

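No Hox gene and no gene of the other lists passed an adjusted p of 0.05 by limma or limma-voom under any of the 15 alternatives. The smallest adjusted p of a Hox gene was 0.123, with the WT libraries of 1 animal label averaged, a fit in which 50 genes passed in all. Of 306 differences of tested Hox genes under the alternatives, 288 kept their direction, and 12 of the 22 genes kept it under every alternative that tested them. Fits that changed only the filter, the moderation or the block return the same differences by design, so they could not change a direction. Direction changed for Hoxc11 in the limma-voom fit (0.082), and for Hoxc4 (−0.027) and Hoxd8 (−0.032) with those WT libraries averaged. With single libraries left out, differences spanned 0 for 10 genes: from −0.28 to 0.22 for Hoxa6, −0.11 to 0.20 for Hoxa7, −0.077 to 0.16 for Hoxc4, −0.018 to 0.35 for Hoxc5, −0.57 to 0.22 for Hoxc6, −0.65 to 0.23 for Hoxc8, −0.65 to 0.37 for Hoxc9, −1.07 to 0.057 for Hoxc10, −0.57 to 0.41 for Hoxc11 and −0.10 to 0.38 for Hoxd8. The upper ends for Hoxc6, Hoxc8, Hoxc9 and Hoxc10 came without CKO library 3, that for Hoxa6 without CKO library 2 and that for Hoxc11 without WT library 1. The lower ends for Hoxa7, Hoxc4 and Hoxd8 came without WT library 2, and that for Hoxc5 without CKO library 2. The median log2 difference of the tested Hox genes was −0.58 with a filter at RPKM 5, which left 7 Hox genes, and ranged from −0.47 to 0.10 when single libraries were left out. The count of Hox genes lower in every CKO library ranged from 5 to 8, and of those higher from 7 to 10, when single libraries were left out. The shares of all listed genes rose too, to between 12.5 and 16.9% lower and between 8.72 and 17.4% higher, from 9.65% and 7.57%. A pseudocount of 0.1 and the limma-voom fit moved Hoxb2 from 1.29 to 2.29 and 2.56, and Hoxa13 from −1.19 to −2.12 and −2.34. Hoxb2 did not pass the filter with any CKO library left out. A replicate block, with 1 library of each genotype per number, leaves every difference unchanged by design. It gave 0 Hox genes past the threshold, and the unadjusted limma p of Hoxa11 was 0.0063, against 0.0019 without it. Over all tested genes, deviations from the group means correlated at 0.20, 0.01 and −0.02 for numbers 1 to 3. For unlike numbers the range was −0.23 to 0.21. Such values cannot settle whether the numbers pair libraries, and the labels state no pairing. The block lowered the SE of Hoxb9 from 0.73 to 0.31 and raised that of Hoxa11 from 0.20 to 0.21. By limma with the block, 2 Hox genes in place of 1 were higher at an unadjusted p under 0.05, and 3 were lower as before. Depth limits the low genes: the Hoxb3 to Hoxb7 levels in WT rest on 0 to 19 reads per library.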
